A study of Mus musculus with 3 samples.

Results

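The library described here is the untreated control of CH12 cells, a mouse B lymphoma line, and its members are the genes measured in it. It was chosen by its label, control, and is 1 of the 3 mRNA libraries in the series. Its table lists 24901 gene rows, and all counts lay in 20668 protein-coding rows. The other libraries came from CH12 cells treated with TGFb at 5 ng/ml for 6 h or 24 h, with 1 library in each group. All cells belonged to the same line and were grown in the same medium. The labels give the control no time in culture, so time in culture and treatment cannot be told apart wherever a treated library is set beside it. The title of the series concerns where Smad3 and Smad7 bind the genome of CH12 cells. The control library shows which genes of their pathway, and of the B cell program around it, were transcribed before TGFb was added.

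CH12 cells carry surface IgM and CD5 and are widely used as a model of class switching, the DNA rearrangement by which a B cell exchanges the constant region of its antibody. In B cells, TGFb steers switching toward IgA. The cytokine binds a type II receptor, which recruits and phosphorylates a type I receptor. The type I receptor phosphorylates Smad2 and Smad3, these join Smad4, and the complex acts on promoters together with partners such as the Runx factors, while Smad6 and Smad7 restrain the receptors. A cultured line is a single lineage without other cells of the spleen or lymph node around it. Genes of T cells, macrophages and stroma are therefore described beside those of B cells.

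The control library held 51386081 counts, the 6 h library 64229801 and the 24 h library 27487221. With no replicate, no error between cultures can be estimated, no test was run, and each interval below is an exact Poisson 95% interval on the count, which covers counting error only. Sequencing reads carried no molecular identifiers, so they do not count molecules one by one. Levels are compared between genes as TPM, the deposited share of transcripts corrected for transcript length. For a gene of median length, 1 count in the control was worth 0.0138 TPM. A count of 0 was given a floor of 3 counts, or 0.0413 TPM for such a gene. Over the genes with 0 counts in the control this floor had a median of 0.0669 TPM and a 90th percentile of 0.150 TPM. The interval of a count of 0 reaches slightly above the floor. Across libraries TPM carries a shift: over 10754 genes with enough counts the median log2 ratio of TPM to the control was 0.15 at 6 h and 0.25 at 24 h, while after TMM scaling of counts (a correction for library composition) it was -0.01 at 24 h. Where a gene is called lowest or highest in the control, both scales gave that order. RNA was extracted from bulk cells, so fewer cells transcribing a gene and less RNA per cell cannot be told apart.

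A gene is called expressed here at 1 TPM or more with at least 30 counts. In the control 10095 of 20668 genes (48.8%) were expressed and 6606 (32.0%) had 0 counts. By the same limit 10332 genes were expressed at 6 h and 10341 at 24 h. The control shared 10069 expressed genes with the 6 h library and 10006 with the 24 h library, and only 26 and 89 of its expressed genes fell below the limit there. Few genes sat at the limit itself: 60 genes lay between 0.9 and 1 TPM and 58 between 1 and 1.1 TPM, while 45 genes at 1 TPM or more had under 30 counts. Of the expressed genes, 2944 lay between 1 and 10 TPM, 5529 between 10 and 100 TPM, 1479 between 100 and 1000 TPM and 143 at 1000 TPM or more. The median was 22.3 TPM over expressed genes and 0.745 TPM over all protein-coding rows.

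**Figure D1:**
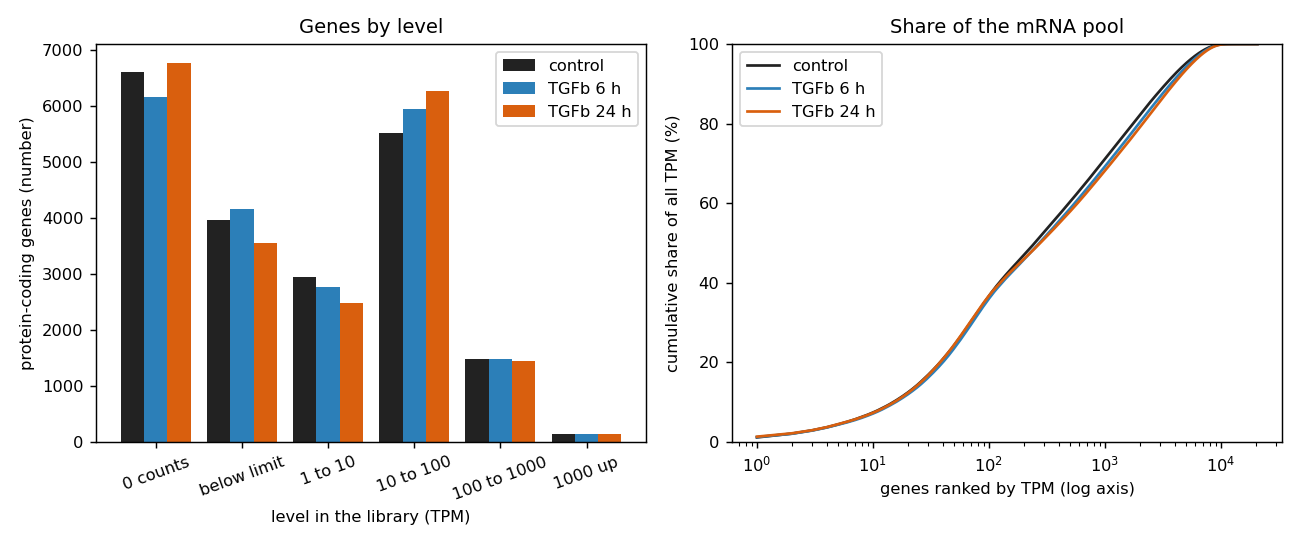
Left, bars give the number of protein-coding genes (vertical axis) in each class of level in TPM for the control, 6 h and 24 h libraries. Right, lines give the cumulative share of all TPM in percent against genes ranked by TPM on a log axis, and in the control the 100 most abundant genes held 36.7% of all TPM.

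The mRNA pool was concentrated in genes of protein synthesis. The 10 most abundant genes held 7.36% of all TPM, the 100 most abundant held 36.7% and the 1000 most abundant held 71.1%. As few as 249 genes made up 50% of the pool, and 3364 made up 90%. The 143 genes at 1000 TPM or more had a median transcript length of 864 bases, against 3292 bases for genes between 1 and 10 TPM. The ranking by level therefore differs from the ranking by reads.

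The most abundant mRNA was Eef1a1, the elongation factor that brings aminoacyl-tRNA to the ribosome (chromosome 9, 78478453 to 78481724), at 11023 TPM from 586936 counts. It was followed by the ribosomal protein genes Rplp1 at 9477 TPM and Rpl41 at 8328 TPM, and by Ppia, the prolyl isomerase cyclophilin A, at 7591 TPM. Rps12, Rps2 and Rpl8 stood at 7220, 6675 and 6058 TPM. Npm1, a nucleolar chaperone of ribosome assembly, reached 6046 TPM, and Ptma, a small acidic chromatin protein, 4921 TPM. All of these were also abundant after treatment: Eef1a1 stood at 11967 TPM at 6 h and 12914 TPM at 24 h, and Npm1 at 5512 and 4311 TPM. Of the 100 most abundant genes of the control, 98 were among the 100 most abundant at 6 h and 97 at 24 h. Counted by reads rather than by TPM, Eef1a1 was followed by Hsp90ab1, a cytosolic chaperone with 331251 counts, and by Eef2, the translocation factor of the ribosome, with 260947 counts.

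By function, the cytoplasmic ribosomal protein genes alone held 28.1% of all TPM in the control, 27.03% at 6 h and 27.8% at 24 h. Of these 88 genes 84 were expressed, with a median of 3196 TPM, and 21 of the 25 most abundant genes of the library belonged to them. The exceptions carry symbols of ribosomal protein-like copies: Rpl10l had 0 counts, Rpl3l stood at 0.32 TPM, Rpl32l at 0.65 TPM and Rpl39l at 1.15 TPM from 24 counts. The 12 translation factors on the list held 3.36%, the 12 chaperones 2.74%, the 12 cytoskeletal genes 1.8% and the 13 glycolytic enzymes 1.19%. Every member was expressed, beside 48.8% of all genes. Among the glycolytic enzymes Eno1, which makes phosphoenolpyruvate and shares reads with another gene, led with 2182 TPM, ahead of Pkm at 1697 TPM and Ldha at 1627 TPM. Among the cytoskeletal genes Tmsb4x, which binds actin monomers, stood at 2294 TPM in the control, 2677 TPM at 6 h and 5285 TPM at 24 h. Of the 3 libraries the control was lowest.

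The B cell label was set beside a list of its markers, and nearly all of them were present. The lists were chosen with earlier results of these data known, so this is not an independent check of the label. Of 45 B cell identity genes, 43 (beside 48.8% of all rows) were expressed in the control, with a median of 67.3 TPM. Cd24a, a glycosylated surface protein of lymphocytes, was the highest, at 1612 TPM in the control, 1438 TPM at 6 h and 1454 TPM at 24 h. Cd79a and Cd79b, the signalling chains of the B cell receptor, stood at 484 and 332 TPM in the control. At 6 h they were at 589 and 314 TPM and at 24 h at 714 and 375 TPM, so Cd79a was lowest in the control. Ms4a1, which encodes CD20, had 202 TPM in the control, 193 TPM at 6 h and 310 TPM at 24 h. Cd81, a tetraspanin, had 133 TPM in the control. Only a pair of the listed genes was below the limit: Cr2, the complement receptor CD21, had 1 count, and Fcer2a, which encodes CD23, reached 0.44 TPM from 30 counts.

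Every one of the 10 listed signalling genes downstream of the receptor was expressed, beside 48.8% of all genes. The adaptor Blnk led with 234 TPM, followed by the phospholipase Plcg2 at 167 TPM and the kinase Syk at 155 TPM. The Src family kinases Blk, Lyn and Fyn stood at 64.5, 47.0 and 41.6 TPM. All 14 genes of the factor group were expressed as well. That group also holds Fcrla and Vpreb3, which are not transcription factors. Spib, an Ets factor of B cells, led with 273 TPM, followed by Tcf3, which encodes the E proteins E12 and E47, at 242 TPM, and Pou2af1, the coactivator of Oct proteins, at 145 TPM. Pax5, the factor that holds B cell identity, had 67.0 TPM (interval 64.3 to 69.8), and Ebf1, which acts with it, had 25.7 TPM. At the low end was Bach2, a repressor of plasma cell differentiation, at 2.19 TPM in the control, 7.37 TPM at 6 h and 13.1 TPM at 24 h. For Bach2 the control was the lowest of the 3 libraries by more than its interval of 2.02 to 2.37 TPM.

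Cd22, an inhibitory lectin of the B cell surface, went the other way. It stood at 52.3 TPM in the control, 15.5 TPM at 6 h and 7.03 TPM at 24 h. The control was highest, and after scaling it was 8.94-fold above the 24 h library (counting interval 8.13 to 9.85).

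**Figure D2:**
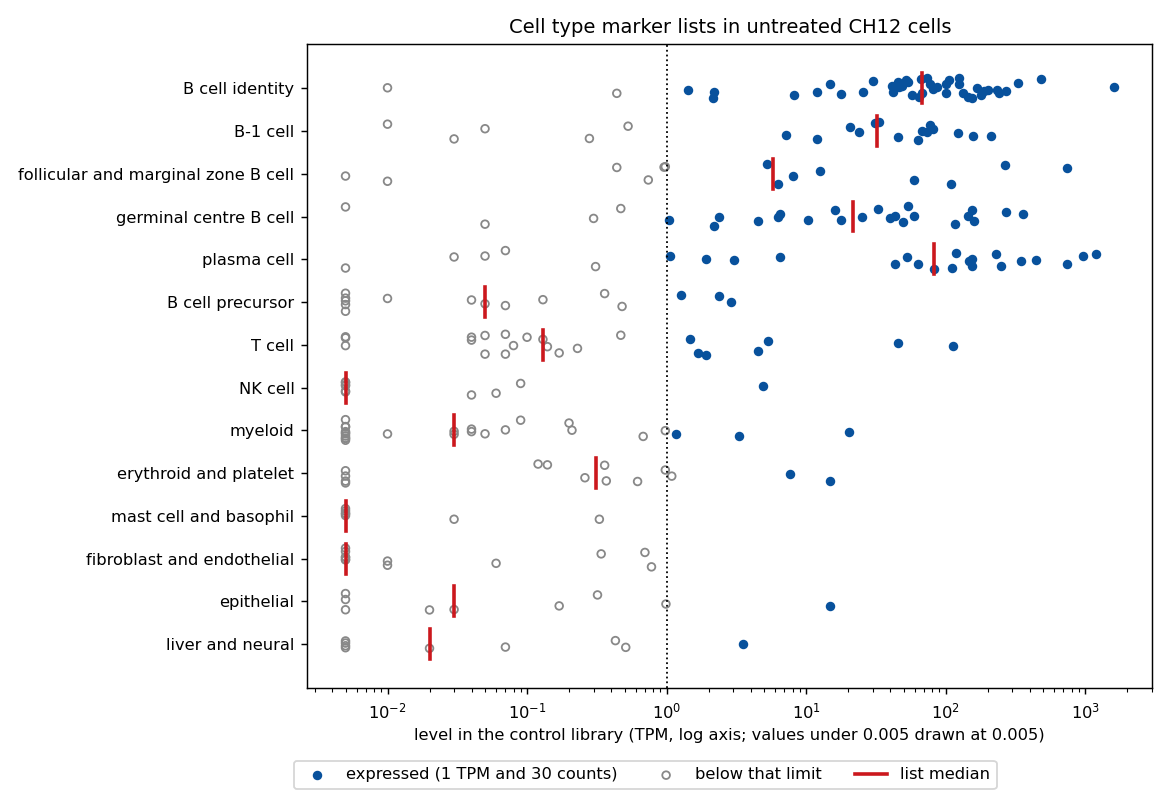
Each point is a listed marker gene at its level in the control library (horizontal log axis, TPM), by list; filled points are expressed, open points are below that limit, and red bars are list medians. The B cell, germinal centre and plasma cell lists have medians of 67.3, 21.6 and 83.0 TPM, and the lists of other cell types have medians below 1 TPM.

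Genes of B-1 cells, the innate-like B cells of the body cavities, were largely present. Of 20 listed genes 15 (75%, beside 48.8% of all genes) were expressed, with a median of 32.3 TPM. By group, 7 of 11 surface genes (63.6%) and 8 of 9 genes of transcription and secretion (88.9%) were expressed. No surface gene reached 100 TPM. Cd5, the surface protein that defines B-1a cells (chromosome 19, 10718107 to 10739026), stood at 45.9 TPM in the control (interval 44.2 to 47.6), 98.7 TPM at 6 h and 95.5 TPM at 24 h. Of the 3 libraries the control was lowest. Il5ra, the receptor chain for the B-1 growth factor IL-5, had 67.5 TPM in the control, 96.3 TPM at 6 h and 117 TPM at 24 h. Il10, an anti-inflammatory cytokine that B-1 cells secrete, was the highest gene of the list at 212 TPM in the control, with 130 TPM at 6 h and 114 TPM at 24 h. The control was 2.25-fold above the 24 h library after scaling (counting interval 2.14 to 2.36).

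The factors of the list were Nfatc1 at 157 TPM, Zbtb32 at 123 TPM, Arid3a at 77.0 TPM and Bhlhe41 at 73.4 TPM. Bhlhe41 is required for B-1a cell maintenance, and Zbtb32 is a repressor found in B-1 and memory B cells. Cd9 stood at 33.3 TPM and Spn, which encodes CD43, at 11.9 TPM. Some markers of peritoneal B-1 cells were below the limit. Pdcd1lg2, which encodes PD-L2, had 5 counts (0.05 TPM), and Itgam, which encodes CD11b, had 42 counts (0.28 TPM). Lin28b, the fetal RNA-binding protein that directs B-1 development, had 1 count.

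Secretory genes of plasma cells were high, while the surface genes listed for that stage ranged from near 0 to far above 1 TPM. Of 25 plasma cell genes 20 (80%, beside 48.8% of all genes) were expressed, with a median of 83.0 TPM. In the endoplasmic reticulum group 11 of 12 were expressed, led by the chaperones Hspa5 at 1191 TPM and Hsp90b1 at 959 TPM and by Mzb1, a B cell chaperone of IgM assembly, at 745 TPM. Jchain, the joining chain of polymeric IgM and IgA (chromosome 5, 88519809 to 88527897), stood at 348 TPM in the control, 293 TPM at 6 h and 160 TPM at 24 h. The control was highest, 2.61-fold above the 24 h library (counting interval 2.53 to 2.69). Xbp1, the factor of the unfolded protein response that plasma cells need, had 118 TPM, and Irf4 had 63.5 TPM. Prdm1, which encodes Blimp-1, the repressor of the B cell program that drives the plasma cell state, had 3.06 TPM in the control, 3.81 TPM at 6 h and 3.36 TPM at 24 h. All 3 values were low and above the limit. Of the 7 surface genes 4 (57.1%, beside 48.8% of all genes) were expressed. They were led by Ly6k at 445 TPM and Tnfrsf13b, the receptor TACI, at 111 TPM, with Cd28 at 1.93 TPM and Slamf7 at 1.06 TPM. Sdc1, the plasma cell marker CD138, had 3 counts, and Tnfrsf17, the receptor BCMA, had 1 count.

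The germinal centre list was split in the same manner between present and near-absent genes. Of 26 genes 22 (84.6%, beside 48.8% of all genes) were expressed, with a median of 21.6 TPM. Rgs13, a brake on chemokine receptor signalling, led with 360 TPM in the control, 341 TPM at 6 h and 262 TPM at 24 h. Mef2b, a factor that activates Bcl6 in germinal centres, had 271 TPM in the control, 293 TPM at 6 h and 260 TPM at 24 h. Ezh2, the histone H3 methyltransferase of proliferating germinal centre B cells, stood at 117 TPM, and S1pr2, a receptor that keeps cells in the follicle, at 17.9 TPM. Bcl6 itself, the defining repressor of germinal centre B cells (chromosome 16, 23965050 to 23988866), had 6 counts in the control, 11 at 6 h and 11 at 24 h, or 0.05, 0.08 and 0.20 TPM. It was far below the limit in every library. Mybl1 had 0.47 TPM, Nuggc 0.30 TPM and Gcsam 0 counts.

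Of 14 genes of follicular and marginal zone B cells 8 were expressed, a share of 57.1% beside 48.8% of all genes. Mzb1, which is on the plasma cell list too, was among the 8. Tnfrsf13c, the BAFF receptor, stood at 268 TPM and Ccr7, which guides cells toward the T zone, at 109 TPM. Klf2, a factor of resting and recirculating lymphocytes, had 0.74 TPM. The list of B cell precursors was nearly empty: 3 of 15 genes (20%) were expressed, and none of them above Cd93 at 2.88 TPM. Rag1 and Rag2, the recombinase of antigen receptor genes, had 0 counts in all 3 libraries, with floors of 0.0140 and 0.0283 TPM in the control. Igll1, part of the surrogate light chain, had 3 counts, and Dntt, the polymerase that adds bases at junctions, had 3 counts.

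Genes of other cell types were mostly silent. Over 8 lists (T cell, NK cell, myeloid, erythroid and platelet, mast cell and basophil, fibroblast and endothelial, epithelial, and liver and neural) 15 of 109 genes were expressed. This is 13.8%, beside 48.8% of all genes. The median was 0.04 TPM, beside 0.745 TPM over all protein-coding rows. Of the 109 genes 41 had 0 counts, beside 32.0% of all genes. The summed level of the 109 genes was 258 TPM in the control, 434 TPM at 6 h and 538 TPM at 24 h, and Lck and Cd5 supplied most of it. Lck, a Src family kinase best known from T cells, stood at 114 TPM in the control, 214 TPM at 6 h and 233 TPM at 24 h, lowest in the control. Cd5 belongs to the B-1 list too. What these genes contribute to differences between libraries was not tested. Of the T cell list 7 of 23 genes (30.4%) were expressed. In its receptor complex group 2 of 7 (28.6%, beside 48.8% of all genes) passed the limit, and none was above 5.35 TPM. The CD3 chains of that group were near 0: Cd3d had 5 counts, Cd3e 4 and Cd3g 1.

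Of the NK cell list 1 of 10 (beside 48.8% of all genes) was expressed, Prf1 at 4.94 TPM, while Ncr1, Gzma, Gzmb and Eomes had 0 counts. The myeloid list had 3 of 25 expressed, led by Cd68, a lysosomal protein, at 20.4 TPM. Cd14, Cebpa and the complement genes C1qa, C1qb and C1qc had 0 counts, as did S100a8 and S100a9. Csf1r, the receptor of macrophage growth factor, stood at 3.32 TPM in the control, 7.31 TPM at 6 h and 12.4 TPM at 24 h, lowest in the control. In the erythroid list Hba-a2 and Hba-a1, alpha globin copies with shared reads, had 14.9 and 7.62 TPM, whereas Hbb-bs and Pf4 had 0 counts. Ehf, an Ets factor of epithelia, stood at 14.9 TPM in the control, 7.69 TPM at 6 h and 3.12 TPM at 24 h, highest in the control. It was the only expressed gene of the epithelial list, whose keratins Krt5, Krt14 and Krt19 had 0 counts. No gene of the mast cell list or the fibroblast and endothelial list passed the limit in the control.

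The level of a gene in the control was set beside the sequence before its start. RefSeq promoter sequences on GRCm38.p6 matched 16429 of the 20668 genes, and the 250 bases before the first listed start were read. The CpG ratio, observed over expected CpG count, had a median of 0.217 for genes with 0 counts, 0.405 for genes below the limit, 0.685 at 1 to 10 TPM, 0.779 at 10 to 100 TPM, 0.790 at 100 to 1000 TPM and 0.844 at 1000 TPM or more. Over all promoters it was 0.568. Read from the last listed start instead, the medians were 0.216 for genes with 0 counts and 0.862 at 1000 TPM or more. Thus the median CpG ratio was higher in each higher class of level.

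**Figure D3:**
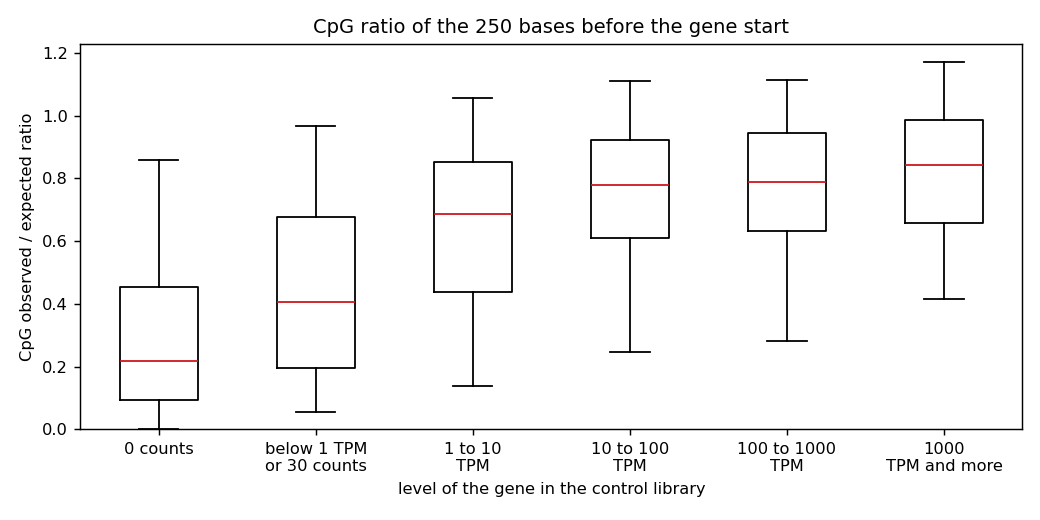
Boxes show the CpG observed to expected ratio of the 250 bases before the gene start (vertical axis) for genes grouped by level in the control library, with the median in red, quartiles as box ends and whiskers at the 5th and 95th percentiles. The median was 0.217 for genes with 0 counts and 0.844 for genes at 1000 TPM or more.

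Motifs were counted as exact letters in the same 250 bases. The TATA box letters TATAAA, searched on the gene strand, were in 15.9% of promoters of genes with 0 counts, in 2.995% at 10 to 100 TPM and in 8.23% of all promoters. The Ets-type letters CCGGAAGT, searched on both strands, were in 0.691% of promoters at 0 counts, 7.38% at 10 to 100 TPM, 9.02% at 100 to 1000 TPM and 3.99% of all. The octamer ATGCAAAT, the site of Oct proteins and searched on both strands, was in 2.11% of promoters at 0 counts, 1.26% at 10 to 100 TPM and 1.61% of all, with no class above 2.11%. None of these motifs overlaps another in its letters. A match is a description of the letters, not a bound site. The classes also differed in base composition. Median GC content of the 250 bases was 46.8% at 0 counts, 60.4% at 10 to 100 TPM and 56% over all promoters. The part of base composition in these motif shares was not tested. The 4 lists of B cell, B-1, germinal centre and plasma cell genes hold 114 genes, of which 75 were expressed and had a promoter entry. Their median CpG ratio was 0.471, below the median of every expressed class. Of these 75 genes 3 had TATAAA starting between 40 and 20 bases before the start. In that window the letters were in 2.89% of all promoters, in 5.60% of those of genes with 0 counts and in 0.985% of those of expressed genes. Of 30 members of the lists of other cell types with 0 counts 5 held them there, namely Cebpa, S100a8, Ppbp, Cpa3 and Mcpt4. The octamer was in 3 promoters of the B cell lists.

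The 100 bases that hold each of these matches are shown because Irf8, Irf4 and Cxcr4 are the expressed members of the 4 B cell lists with TATAAA in that window. The motif is in capitals, and the gene strand is written 5′ to 3′ on GRCm38.p6. The first 3 hold TATAAA. Irf8, a factor of B cell and myeloid lineages, had 57.8 TPM, and its window is chr8:120736258-120736357 on the plus strand, with the motif at position -31 from the start. The Irf4 window is chr13:30749133-30749232 on the plus strand, with the motif at -26. Cxcr4, the receptor of germinal centre dark zone cells, had 33.0 TPM, and its window is chr1:128592300-128592399 on the minus strand, with the motif at -30. The myeloid factor Cebpa is set beside them because it had 0 counts with the same letters at -30, in the window chr7:35119193-35119292 on the plus strand.
Irf8: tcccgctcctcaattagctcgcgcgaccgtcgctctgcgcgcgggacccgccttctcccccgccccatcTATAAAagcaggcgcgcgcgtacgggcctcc
Irf4: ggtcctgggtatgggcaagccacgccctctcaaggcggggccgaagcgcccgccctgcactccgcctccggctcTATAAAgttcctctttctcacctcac
Cxcr4: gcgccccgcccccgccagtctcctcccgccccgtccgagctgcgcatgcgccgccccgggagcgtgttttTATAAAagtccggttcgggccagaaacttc
Cebpa: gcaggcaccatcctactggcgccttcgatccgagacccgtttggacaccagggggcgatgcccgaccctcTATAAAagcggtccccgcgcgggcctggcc

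The octamer promoters of the B cell lists were those of Blnk, Vpreb3 and Mef2b. Blnk had 234 TPM, and its window is chr19:40994298-40994397 on the minus strand, with the motif read from the opposite strand at -130. Vpreb3, a small protein of immature B cells, had 86.6 TPM, and its window is chr10:75948200-75948299 on the plus strand, with the motif read from the opposite strand at -45. The Mef2b window is chr8:70152661-70152760 on the plus strand, with the motif at -85. Rpl41 is added as the promoter of 1 of the most abundant mRNAs, with CCGGAAGT at -56 in the window chr10:128549169-128549268 on the minus strand. Of the 25 most abundant genes 17 had a promoter entry and 2 of these held CCGGAAGT.
Blnk: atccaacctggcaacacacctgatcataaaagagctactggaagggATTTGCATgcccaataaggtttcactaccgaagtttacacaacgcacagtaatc
Vpreb3: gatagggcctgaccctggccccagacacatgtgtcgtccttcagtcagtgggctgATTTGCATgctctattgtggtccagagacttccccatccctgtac
Mef2b: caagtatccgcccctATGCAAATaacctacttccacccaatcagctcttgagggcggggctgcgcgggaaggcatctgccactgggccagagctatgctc
Rpl41: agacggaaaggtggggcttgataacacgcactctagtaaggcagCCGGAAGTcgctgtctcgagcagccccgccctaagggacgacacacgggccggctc

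Of 19 listed receptor genes of the TGFb superfamily 8 were expressed in the control, a share of 42.1% beside 48.8% of all genes, and 8 were expressed at 6 h and at 24 h as well. Among type II receptors Tgfbr2, which binds TGFb itself (chromosome 9, 116087695 to 116175363), held 78.5% of the TPM of its group. It stood at 32.6 TPM in the control (interval 31.7 to 33.5), 68.0 TPM at 6 h and 81.9 TPM at 24 h, lowest in the control. Bmpr2, the BMP type II receptor, had 4.76 TPM in the control, and the activin receptors Acvr2b and Acvr2a had 2.82 and 1.27 TPM. Reads of Acvr2a were shared with another gene. Amhr2 had 4 counts. The order Tgfbr2, Bmpr2, Acvr2b, Acvr2a, Amhr2 had no overlapping neighbours.

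Among type I receptors the highest in the control was Bmpr1a, a BMP receptor, at 37.8 TPM (interval 36.9 to 38.7), with 43.2 TPM at 6 h and 47.2 TPM at 24 h. Tgfbr1, the partner of Tgfbr2 (chromosome 4, 47353222 to 47414926), came after it at 10.8 TPM (interval 10.4 to 11.3). In the treated libraries Tgfbr1 stood at 66.7 TPM at 6 h and 93.9 TPM at 24 h, so that the 2 receptors changed places in the order. Acvr1b, the activin receptor ALK4, had 4.71 TPM in the control, 12 TPM at 6 h and 18.4 TPM at 24 h. Acvrl1, known as ALK1, had 3.33 TPM in the control. Acvr1 and Bmpr1b had 0 counts and Acvr1c had 1 count. For Acvr1 the floor of 3 counts was 0.0319 TPM in the control, and its interval reached 0.0392 TPM.

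No coreceptor passed the limit: 0 of 7 were expressed, beside 48.8% of all genes. Tgfbr3, the betaglycan that presents TGFb2, had 1 count, Eng, which encodes endoglin, had 14 counts and Bambi, a decoy receptor, had 3 counts.

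Of the 8 Smad genes 6 (75%, beside 48.8% of all genes) were expressed in the control. Smad4, the common partner, held 51.1% of the TPM of the family, at 32.3 TPM in the control (interval 31.2 to 33.4), 34.96 TPM at 6 h and 36.8 TPM at 24 h. Smad7, the inhibitory Smad that blocks the receptors, was next at 9.98 TPM (interval 9.46 to 10.5), followed by Smad5, which acts in BMP signalling, at 9.17 TPM, and their intervals overlapped. Smad2 had 8.04 TPM. Smad3, the partner named in the series title and located at chromosome 9, 63646766 to 63757994, had only 2.27 TPM (interval 2.04 to 2.51) in the control, 2.44 TPM at 6 h and 1.66 TPM at 24 h. Of the receptor-regulated Smads of the TGFb branch, Smad2 was thus the more abundant mRNA in every library. Smad6 had 1.45 TPM, Smad9 1 count and Smad1 0 counts. For Smad1 the floor of 3 counts was 0.0317 TPM in the control, and its interval reached 0.0390 TPM.

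The inhibitory Smads were low before treatment relative to the treated libraries. Smad7 stood at 9.98 TPM in the control, 22.9 TPM at 6 h and 31.6 TPM at 24 h, and Smad6 at 1.45, 4.68 and 5.81 TPM. Both were thus lowest in the control. Smad2, Smad3, Smad4 and Smad5 stayed below the 2-fold rule in both treated libraries.

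**Figure D4:**
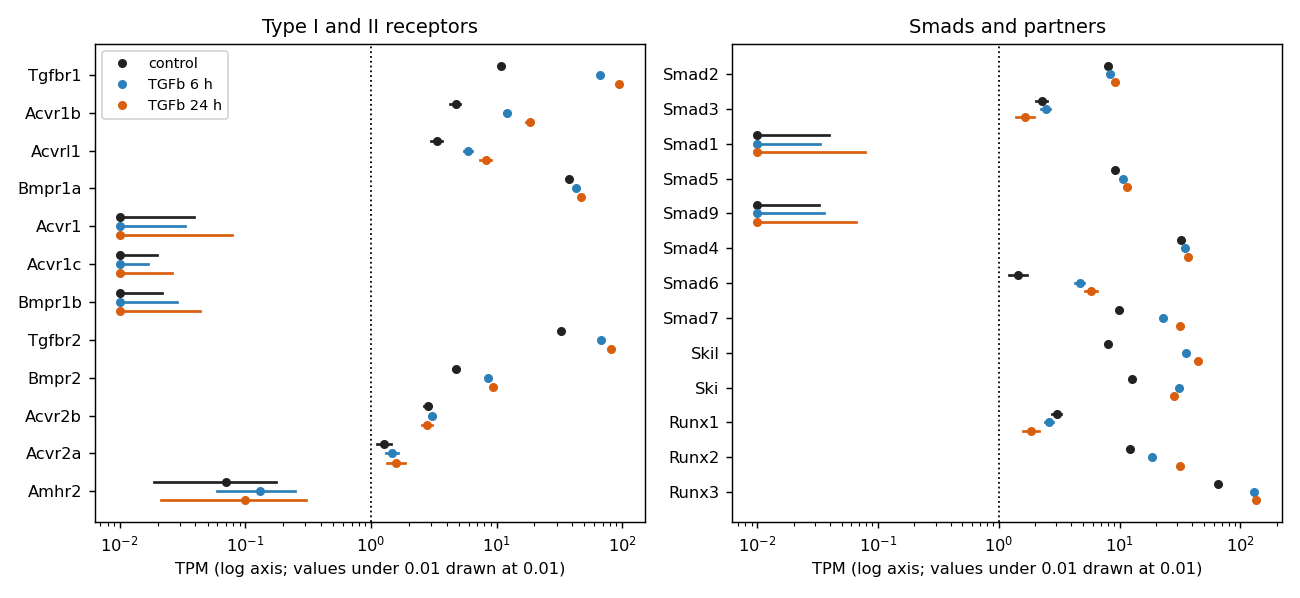
Points give the TPM (horizontal log axis, values under 0.01 drawn at 0.01) of type I and II receptors (left) and of Smads and partners (right) in the control, 6 h and 24 h libraries, with exact Poisson 95% intervals as lines. Tgfbr1, Acvr1b, Smad6, Smad7 and Skil are lowest in the control, while Acvr1, Bmpr1b and Smad1 have 0 counts there.

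Of 26 Smad partners and regulators 20 (76.9%, beside 48.8% of all genes) were expressed. Among factors that act with Smads at promoters, Runx3, which binds germline promoters of switch regions, held 81.2% of the TPM of the Runx family, at 65.0 TPM in the control, 129 TPM at 6 h and 136 TPM at 24 h. Runx2 had 12.1 TPM and Runx1 3.01 TPM in the control, and no interval overlapped its neighbour. Their shared subunit Cbfb had 88.3 TPM. Id3 and Id2, inhibitors of E proteins and classic TGFb and BMP targets, stood at 160 and 31.1 TPM in the control, whereas Id1 had 3 counts and Id4 had 0. Id2 had 114 TPM at 6 h and 95.6 TPM at 24 h, with the control the lowest.

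Of the repressors, Tgif1, which competes for Smad2 binding, had 56.7 TPM, Ski 12.7 TPM and Skil 8.01 TPM in the control. Skil, a Smad repressor and feedback target, had 35.2 TPM at 6 h and 44.3 TPM at 24 h. Ldlrad4, a membrane inhibitor of Smad2 and Smad3 phosphorylation, had 1.94 TPM in the control, 11.7 TPM at 6 h and 21.0 TPM at 24 h. Both were lowest in the control. Pmepa1, a relative of Ldlrad4 and a TGFb target in many other cells, had 0 counts in the control. The phosphatase Ppm1a had 55.5 TPM and the ubiquitin ligases Smurf2 and Smurf1 had 10.8 and 7.62 TPM.

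Untreated cells transcribed a TGFb ligand themselves. Tgfb1 (chromosome 7, 25687002 to 25705077) stood at 117 TPM in the control (interval 115 to 120), 146 TPM at 6 h and 166 TPM at 24 h. Tgfb3 had 0.49 TPM and Tgfb2 4 counts. Of the 22 genes for ligands and their activation 8 (36.4%, beside 48.8% of all genes) were expressed. Another 8 of the 22 (beside 32.0% of all genes) had 0 counts, among them Inhba, Inhbb, Bmp2, Bmp4 and Bmp7. Furin, the protease that cuts the TGFb precursor, had 40.3 TPM in the control, 94.96 TPM at 6 h and 120.1 TPM at 24 h. Nrros, a surface protein that tethers latent TGFb1, went the other way, with 48.4 TPM in the control, 24.5 TPM at 6 h and 12.4 TPM at 24 h. The control was 4.61-fold above the 24 h library (counting interval 4.196 to 5.08).

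Among cytokine receptors 35 of 61 were expressed in the control, a share of 57.4% beside 48.8% of all genes. In the common gamma family Il21r, the receptor of the follicular helper cytokine IL-21, led with 155 TPM in the control, 154 TPM at 6 h and 122 TPM at 24 h, ahead of the shared chain Il2rg at 126 TPM. Il4ra, the chain through which IL-4 acts (chromosome 7, 125552271 to 125579474), stood at 16.5 TPM in the control (interval 15.9 to 17.1), 16.1 TPM at 6 h and 16.6 TPM at 24 h. The TPM was thus nearly the same in the 3 libraries, and after TMM scaling the treated libraries stood at 0.874 and 0.838 of the control. Il13ra1, the other partner of Il4ra, had 2 counts. In the beta common family Csf2rb had 71.6 TPM and its copy Csf2rb2 had 8.17 TPM, and these near-identical genes share reads.

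Of the interferon receptors Ifngr2 had 58.7 TPM, Ifnar2 29.3 TPM, Ifngr1 17.4 TPM and Ifnar1 13.4 TPM. Ifnlr1, the type III interferon receptor chain, had 0.25 TPM in the control, 7.19 TPM at 6 h and 8.36 TPM at 24 h, below the limit only in the control. In the TNF receptor family Tnfrsf13c and Tnfrsf13b, the receptors of BAFF and APRIL, had 268 and 111 TPM. Cd40, the receptor of T cell help (chromosome 2, 165055614 to 165071654), stood at 100.7 TPM in the control, 132 TPM at 6 h and 138 TPM at 24 h. Tnfrsf1b had 11.1 TPM, whereas Tnfrsf1a, the other TNF receptor, had 2 counts, and Cd27 and Ltbr had 1 count each. Il1r1, Il18r1 and Il23r had 0 counts.

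All 11 Jak and Stat genes were expressed, beside 48.8% of all genes. Jak1 led the kinases with 34.7 TPM, followed by Jak3 at 25.5 TPM, Tyk2 at 18.8 TPM and Jak2 at 9.45 TPM, with no overlap between neighbours. Reads of Jak1 and Jak3 were partly shared with other genes. Stat6, the factor downstream of the IL-4 receptor, held 35.6% of the TPM of the Stat family at 52.1 TPM in the control, 61.7 TPM at 6 h and 63.9 TPM at 24 h. Stat3 had 24.6 TPM, Stat5b 21.3 TPM, Stat5a 12.7 TPM, Stat4 11.2 TPM and Stat2 4.88 TPM, and none of these intervals overlapped. Of the 7 Stat genes 2 had shared reads, and the intervals do not cover how such reads were divided. Jak2 had 23.3 TPM at 6 h and 34.8 TPM at 24 h, so the control was lowest for it.

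Of 39 cytokines and chemokines 14 (35.9%, beside 48.8% of all genes) were expressed in the control. Another 9 had 0 counts, beside 32.0% of all genes. A few were very abundant. Mif, macrophage migration inhibitory factor, stood at 2103 TPM in the control, 1793 TPM at 6 h and 1215 TPM at 24 h, highest in the control. Ccl22, a chemokine for T cells that carry Ccr4 (chromosome 8, 94745684 to 94751388), had 1826 TPM in the control, 2532 TPM at 6 h and 3508 TPM at 24 h, lowest in the control. Its neighbour Ccl17, which binds the same receptor, had 19.4 TPM. Ltb, lymphotoxin beta, had 684 TPM and Lta 9.20 TPM. Ebi3, which pairs with Il12a in IL-35 and with Il27 in IL-27, had 74.6 TPM, while Il12a had 1.32 TPM and Il27 had 1 count. Il6 had 4 counts, and Il2, Il7, Il21 and Ifng had 0 counts.

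Nearly all listed class switching genes were transcribed before treatment. Of 55 listed genes 53 (96.4%, beside 48.8% of all genes) were expressed in the control, with a median of 22.1 TPM. Among genes that target and process deaminated DNA, Exosc3, a subunit of the RNA exosome, had 231 TPM, Ung, which removes uracil from DNA (chromosome 5, 114130366 to 114139321), had 121 TPM and the single-strand binding subunits Rpa1, Rpa3 and Rpa2 had 149, 136 and 115 TPM. Ung stood at 100.7 TPM at 6 h and 88.9 TPM at 24 h, highest in the control. In base excision and mismatch repair Apex1, the main endonuclease at abasic sites, had 540 TPM and Apex2 10.6 TPM. Msh6, a subunit of mismatch recognition, had 50.2 TPM.

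In the damage response Parp1, which binds DNA breaks, led with 357 TPM. H2afx, the histone variant that marks breaks and shares reads with another gene, had 174 TPM, and Trp53bp1 (53BP1), which protects ends from resection and also shares reads, had 13.8 TPM. Rif1, its effector, had 12.2 TPM and Mad2l2, a subunit of shieldin, had 40.9 TPM. In end joining the replicative ligase Lig1 had 164 TPM, the Ku subunits Xrcc6 and Xrcc5 had 54.0 and 39.3 TPM, and the ligase of classical end joining Lig4 had 4.66 TPM. Its partners Xrcc4 and Nhej1 had 5.54 and 4.45 TPM, and the kinase Prkdc had 5.32 TPM. All 14 end joining genes were expressed, with those of the classical ligase complex at the low end of the group. The only members below the limit were Hmces, a shield of abasic sites, with 4 counts and Mtap with 0 counts. Mtap (chromosome 4, 89137370 to 89181090) is an enzyme of methionine salvage, although the list holds it among its targeting genes. For Mtap a count of 0 in the control allowed up to 0.0382 TPM.

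All 19 antigen presentation genes were expressed, beside 48.8% of all genes. Cd74, the invariant chain, was the most abundant, at 3464 TPM in the control, 3688 TPM at 6 h and 5040 TPM at 24 h, and ranked 45 in the control. H2-Aa had 460 TPM, H2-Eb1 273 TPM and H2-Ab1 181 TPM, the last 2 sharing reads with other genes. Ciita, the class II transactivator (chromosome 16, 10480014 to 10531064), had 20.8 TPM in the control, 42.7 TPM at 6 h and 62.9 TPM at 24 h. H2-Ob, a chain of the class II modulator H2-O, had 5.47 TPM in the control, 23.4 TPM at 6 h and 64.2 TPM at 24 h. Both were lowest in the control. In class I B2m had 531 TPM and the transactivator Nlrc5 3.73 TPM.

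In several factor families 1 member held most of the TPM in the control. Myc (chromosome 15, 61985341 to 61990361) held 99.8% of the TPM of its family, at 394 TPM in the control, 248 TPM at 6 h and 226 TPM at 24 h, highest in the control. Mycn had 0 counts and Mycl 0.67 TPM. Among E proteins Tcf3 held 67.9%, among Ikaros factors Ikzf1 held 61.6% at 100.9 TPM, and among Oct factors Pou2f2 held 71.9% at 45.3 TPM. In the NF-kB family Nfkb1 led with 166 TPM, and the next members Relb, Nfkb2 and Rela had 58.1, 57.3 and 54.4 TPM. The interval of Nfkb2 overlapped those of Relb and of Rela, and the intervals of Relb and Rela did not overlap. Of the Irf family Irf5 was the highest at 135 TPM, partly from shared reads.

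Among survival genes Mcl1 had 290 TPM, Bcl2l1 46.6 TPM and Bcl2 11.6 TPM, while the Bcl2a1 copies, which share reads, had between 86.6 and 303.5 TPM. Of D cyclins Ccnd3 held 75.7% at 93.9 TPM, with shared reads. Its kinase Cdk4 had 628 TPM and Cdk6 22.8 TPM. Trp53, the tumour suppressor p53 (chromosome 11, 69580348 to 69591873), had 297 TPM in the control, 293 TPM at 6 h and 281 TPM at 24 h. Its target Cdkn1a had 5.93 TPM. Cdkn2a and Cdkn2b, inhibitors of Cdk4 and Cdk6, had 0 counts in all 3 libraries.

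The zeros at Cdkn2a and Mtap lay in a longer stretch without counts, which was looked at after these values were seen. On chromosome 4 a run of 17 neighbouring protein-coding genes, from Gm13285 (starting at 88800320) to Izumo3 (ending at 92147225), had 0 counts in all 3 libraries. It holds type I interferon genes, which many resting cells do not transcribe, and also Mtap, Cdkn2a, Cdkn2b, Dmrta1 and Elavl2. The nearest expressed genes were Klhl9 on the one side, ending at 88722508, with 25.5 TPM in the control, 33.8 TPM at 6 h and 40.2 TPM at 24 h, and Caap1 on the other, starting at 94500079, with 15.5, 17.4 and 14.8 TPM. Of the 29 genes between them 23 had 0 counts in all 3 libraries, over 5.778 Mb. Among all 20668 protein-coding rows 5302 had 0 counts in all 3 libraries. Interferon genes on the far side of Klhl9, such as Ifna15 and Ifnab, did too. Beyond Caap1, Plaa had 32.7 TPM in the control. Mtap is an enzyme used by most tissues, and no cause for its zero was tested.

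**Figure D5:**
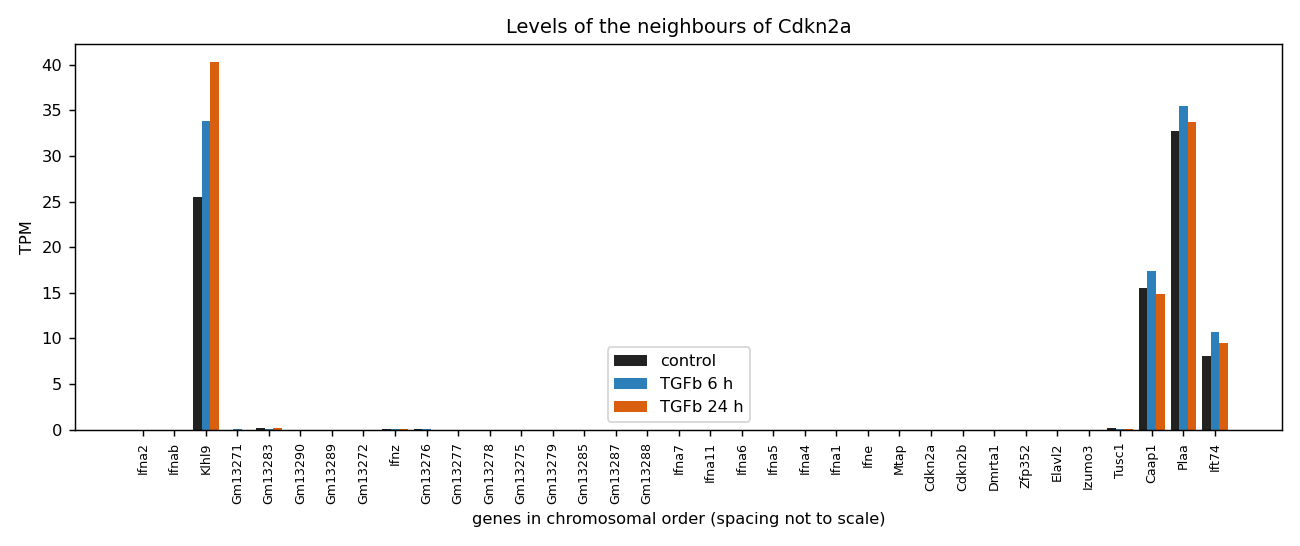
Bars give the TPM (vertical axis) of genes around Cdkn2a in chromosomal order, with spacing not to scale, in the control, 6 h and 24 h libraries. Klhl9, Caap1, Plaa and Ift74 carry bars in all 3 libraries, and the genes from Gm13285 to Izumo3 are at 0.

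To place these levels beside the treated libraries, counts were scaled by TMM, and a gene was counted as different at 2-fold or more with at least 1 CPM, a count scaled to library size, and 30 counts in the higher library. Of 10754 genes measured, 258 (2.40%) were higher and 39 (0.363%) were lower at 6 h than in the control, and 797 (7.41%) were higher and 217 (2.02%) lower at 24 h. Both comparisons share the control library. Of the 410 measured list members 28 were higher and 7 lower at 6 h, and 65 were higher and 19 lower at 24 h. The split at 24 h depended on the scaling, with 1075 genes higher and 118 lower by total counts, and 1182 higher and 77 lower by TPM.

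By list, the control was lower than the 24 h library for 8 of 23 measured germinal centre genes and higher for 2, which were Lmo2 and Neil1. It was lower for 5 of 43 B cell identity genes, namely Ikzf3, Fcrla, Bach2, Fcgr2b and Pou2f2, and higher for Cd22 alone. It was lower for 5 of 17 measured B-1 genes and higher for 1. The backgrounds are 7.41% lower and 2.02% higher in the control. Over the 8 lists of other cell types 14 of 29 measured genes were lower in the control and 2 higher, with 4 of 4 measured fibroblast and endothelial genes and 3 of 5 measured myeloid genes among the lower ones. A gene counts as measured when any of the 3 libraries reaches the minimum, so one that reaches it at 24 h alone was bound to lie lower in the control. The part of these genes in the counts of the B cell lists was not tested. Of 20 measured plasma cell genes 0 were lower in the control and 2 were higher, Jchain and Fkbp11. Fkbp11, an endoplasmic reticulum prolyl isomerase, had 83.0 TPM in the control, 62.8 TPM at 6 h and 34.1 TPM at 24 h. The control was the highest by 2.95-fold over 24 h (counting interval 2.60 to 3.36). Of 8 measured superfamily receptors 4 (beside a background of 7.41%) were lower in the control than at 24 h and 0 were higher, namely Tgfbr1, Tgfbr2, Acvr1b and Acvrl1. For Tgfbr1 the 24 h library was 7.21-fold above the control (counting interval 6.87 to 7.58), for Acvr1b 3.26-fold (2.92 to 3.65), for Tgfbr2 2.10-fold (2.02 to 2.18) and for Acvrl1 2.05-fold (1.78 to 2.35).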

How the data were processed

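CH12 cells were profiled by poly(A) mRNA sequencing (50 cycles) in 3 libraries. RSEM, STAR, bedtools, CASAVA 1.8.2 and the build mm10 are named in the submitters' processing notes. Other versions, the annotation and the strand setting: not given in the sources used here. Per the file headers, the authors deposited RSEM expected counts, TPM and FPKM for each gene. Expected counts that were not whole mark reads shared between genes, and 1165 expressed genes of the control had them. The deposited TPM gave the levels, and the deposited FPKM was used only as an alternative. The 4233 rows that are not protein-coding held 0 counts. Totals were 51386081, 64229801 and 27487221 counts.

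Expected counts were rounded for counting intervals and folds. Libraries were scaled by TMM in edgeR 4.0.16 (R 4.3.3), with DESeq2 1.42.0 size factors, total counts and TPM as alternatives. Tables were handled in Python 3.11.15 with pandas 2.3.3 and SciPy 1.17.1. Fold intervals are exact conditional 95% intervals of a ratio of 2 counts. No test was run, as each group has 1 library. The counting and fold steps were tested on simulated data.

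The 29 gene lists hold 601 genes of the tables. The members and lists were chosen with earlier results of these data known. A written rule named the 25 genes of highest TPM, the 4 highest members of each list role, every receptor of the superfamily, Smad, Jak, Stat and class switching gene, markers of other cell types at 0 counts or at 1 TPM or more, and some fixed genes. Other genes, such as Klf2, Lin28b and Ppm1a, were named after their values were seen. Some genes that the naming rule covers are not reported here. Positions are from RefSeq on GRCm38.p6, counted from 1, and matched 20550 genes. Immunoglobulin constant regions were not analysed here.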

Additional observations from a re-analysis of the deposited data

How the results depend on the processing

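The number of expressed genes in the control ranged from 8464 (limit of 5 TPM) to 10450 (limit of 0.5 TPM), beside 10095, and that of genes with 0 counts from 6525 to 7411.5, the latter expected at the depth of the 24 h library. List members expressed ranged from 330 to 397, beside 382. Of 174 counts for single lists under an alternative, 18 moved by more than 1.5 times, 8 of them with the limit of 5 TPM. The share of the 100 most abundant genes, 36.7% by TPM, was 19.96% without division by length and 38.7% without genes that share reads. The genes higher at 6 h numbered 1264 with no minimum and 728 at a limit of 1.5-fold, beside 258. Those lower at 6 h numbered 22 by TPM, 980 with no minimum and 230 at 1.5-fold, beside 39. At 24 h, 2273 with no minimum and 1808 at 1.5-fold were higher, beside 797, and 118 by total counts, 77 by TPM, 438 with no minimum and 1274 at 1.5-fold were lower, beside 217. Without a minimum the added genes are those with few counts, where depth limits the ratio. No paired analysis was possible because each group has 1 library and no test was run. No library could be left out for the same reason.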

Other observations

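No protein-coding gene of the Y chromosome had a count in the control (0 of 42), and Ddx3y, Eif2s3y, Kdm5d and Uty had 0 counts in all 3 libraries. On the X chromosome 33.6% of 866 genes were expressed, beside 48.8% of all genes.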
